A study of Ziziphus nummularia with 2 samples.

Results

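The contigs described here are the longest of a transcriptome assembly of Ziziphus nummularia, a spiny wild relative of the jujube that grows on dry land. A contig is an assembled stretch of transcript, and all contigs whose length came out at 4000 bases or more and with 1 FPKM or more in either library were taken. This gave 136 contigs, out of 98230 in the tables, 97409 with a length, and 59206 that passed the same minimum of 1 FPKM. All 136 contigs of this length passed the minimum of 1 FPKM, so no long contig was lost to it. FPKM is the read count per 1000 bases of contig, set against the read total of its library. The rule used length and level, not the ratio between the libraries.

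RNA of whole seedlings of genotype CIAHZN-J was sequenced in 2 libraries, a control at 0 MPa and a drought sample at -0.3 MPa of water potential. Genotype, tissue and library kit were shared by both. The means and duration of the treatment and the number of seedlings pooled were not given in the sources used here. With 1 library per condition there is no spread between replicates, so every difference below is a difference between 2 libraries, without a replicate check and without a p-value.

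A long mRNA usually encodes a large protein or carries long untranslated ends. In plants, the TOR kinase, which couples growth to nutrient and water supply, cytosolic acetyl-CoA carboxylase, which supplies precursors of long fatty acids, and the callose synthases, which build a cell wall glucan, are all encoded by long mRNAs. No sequence or gene name was used here, so none of the contigs can be assigned to such a gene, the tissue label could not be checked against marker genes, and each contig is called by its number. Alleles, splice forms and near-identical copies of a gene may stand as separate contigs here, and how reads that match more than one contig were counted is not known.

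The drought library held lower levels of most of the long contigs. Of the 136, 106 (77.9%) had a log2 ratio of drought over control below 0, and the median was -0.30, with quartiles at -0.63 and -0.05. Over all 59206 contigs with at least 1 FPKM, 52.6% lay below 0 and the median was -0.06. The ratio is log2((drought FPKM + 1)/(control FPKM + 1)), which understates the difference of low contigs. The control library was the deeper of the pair, with 12509371 reads on contigs against 7406331. FPKM divides by the library total, and the part of depth in the lower median was not tested. In RNA of whole seedlings, fewer cells of a type and less RNA per cell cannot be told apart.

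Large differences, by a fixed rule of size, were few among the long contigs. The rule was a log2 ratio of at least 1 or at most -1. By it, 2 of the 136 contigs were higher in drought by 2-fold or more and 12 were lower. The same rule called 14.0% of all 59206 contigs higher and 16.2% lower, against 1.47% and 8.82% of the long ones. That background had far fewer reads, with medians of 44 in the control and 24 in drought, against 1100.5 and 552. Its counting error is therefore wider, and contigs nearer in length are compared further below. At 4-fold, 0 long contigs were higher and 1 was lower, where the background was 3.27% and 3.04%. The other 122 long contigs, or 89.7%, lay within 2-fold, against 69.8% of all 59206. Within 1.25-fold lay 58, or 42.6% of the 136, against 25.8% of all 59206. That share was 40.1% in contigs of 2000 to under 3000 bases and 46.9% in those of 3000 to under 4000, so it was not particular to the long ones. With the pseudocount, the log2 ratios ran from -2.12 to 1.30.

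**Figure D1:**
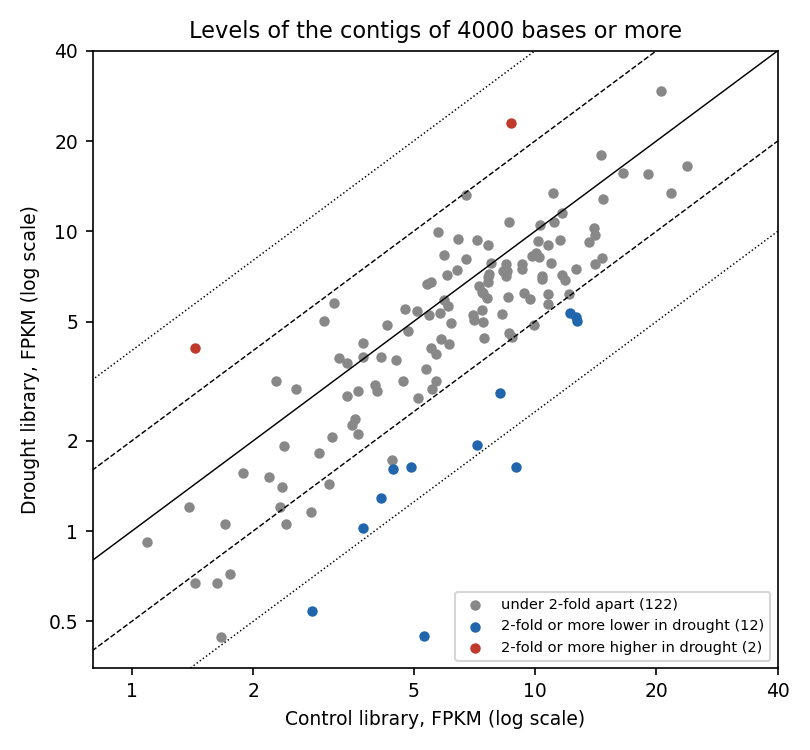
FPKM of each of the 136 contigs in the control library (horizontal) and the drought library (vertical), both on log scales. Each point is 1 contig; the solid line marks equal FPKM and the dashed and dotted lines mark 2-fold and 4-fold FPKM ratios. More points lie below the solid line than above it, with the 12 contigs that are at least 2-fold lower (with the pseudocount) in blue and the 2 that are at least 2-fold higher in red.

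Levels of the long contigs were moderate and spread over a narrow range. In the control library the lowest was 1.09 FPKM, the median 6.74 and the highest 23.8. The drought values were 0.444, 5.34 and 29.4 FPKM. All 136 reached 1 FPKM in the control, and 7 were under 1 FPKM in drought, so these 7 passed the minimum through the control alone. At least 10 FPKM was reached by 33 long contigs in the control and by 15 in drought, and at least 20 FPKM by 3 and 2. Over all 59206 contigs with at least 1 FPKM, 15542 and 15237 reached 10 FPKM, and 7763 and 7934 reached 20 FPKM. Of the same 59206, 9067 were under 1 FPKM in the control and 9865 in drought. By mean FPKM of both libraries, the median long contig stood at percentile 62.2 of all contigs with at least 1 FPKM, the lowest at 15.4 and the highest at 89.5.

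None of the long contigs was among the 1000 contigs with the highest FPKM in either library. They made up 0.23% of the contigs with at least 1 FPKM, so few would stand there by their number alone. Counted in reads, which a long contig collects more of at the same level, 39 were among the 1000 highest in the control and 18 in drought. Together they took 163761 control reads and 81481 drought reads. That was 1.31% of the control reads on contigs (95% exact binomial interval 1.30% to 1.32%) and 1.10% of those from drought (1.09% to 1.11%), while they held 1.74% of the assembled bases. Scaled by the library totals, the summed reads were 1.21-fold lower in drought (1.20 to 1.23). For all 59206 contigs with at least 1 FPKM the same sum was 1.02-fold lower. With 1 library per condition, all intervals here cover counting error only. Reads carry no molecular identifiers, so copies of the same molecule cannot be told apart from separate molecules.

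The depth behind most long contigs was high. Reads per contig ran from 177 to 3643 in the control, with a median of 1100.5, and from 34 to 2965 in drought, with a median of 552. A single read on 4000 bases adds 0.00808 FPKM for the control and 0.0134 FPKM for drought. The 95% counting interval of the FPKM ratio had a median half-width of 10.4% of the ratio. It lay wholly below 1 for 92 of the 136 contigs, wholly above 1 for 21, and included 1 for 23. Over all 59206 contigs it lay below 1 for 28.7% and above 1 for 25.8%, a background that contains many contigs with few reads.

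The highest ratio belonged to contig 589740, of 6930 bases. It had 1870 reads in the control and 2965 in drought, or 8.73 FPKM (95% Poisson interval 8.34 to 9.13) and 22.9 FPKM (22.1 to 23.7). Its FPKM was thus 2.62-fold higher in drought (2.47 to 2.78). This contig also had the second highest drought level of the 136, and the most drought reads. Contig 589560, of 4273 bases, was the other one past 2-fold, at a far lower level. Its reads numbered 190 in the control and 326 in drought, for levels of 1.44 and 4.08 FPKM. Its plain FPKM ratio was the larger of the pair, 2.84-fold (2.37 to 3.41), with an interval that overlaps that of contig 589740. The pseudocount of 1 FPKM put its log2 ratio at 1.06, against 1.30 for contig 589740.

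Next in order came 4 contigs with smaller upward differences. Contig 589624, of 4757 bases, had 6.73 FPKM in the control and 13.2 in drought, 1.97-fold higher (1.81 to 2.14). Contig 589684, of 5616 bases, had 3.18 and 5.78 FPKM, 1.82-fold higher (1.62 to 2.05). The intervals of both reach 2-fold, so counting error alone does not place them on one side of it. Contig 589634, of 4912 bases, had 5.75 and 9.94 FPKM, 1.73-fold higher (1.57 to 1.90). For contig 589658, of 5168 bases, the values were 2.99 and 5.02 FPKM, 1.68-fold higher (1.48 to 1.91). Their intervals overlap one another, so the order among these 4 is not fixed beyond counting error. The last 4 of the 10 highest were contigs 589548, 589536, 589666 and 589752, which were 1.39- to 1.47-fold higher.

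The lowest ratio belonged to contig 589520, of 4055 bases. It had 666 reads in the control but 34 in drought, or 5.31 FPKM (4.92 to 5.73) and 0.449 FPKM (0.311 to 0.627). Its FPKM was 11.8-fold lower in drought (8.39 to 17.2), and its log2 ratio with the pseudocount was -2.12. This was the only one of the 136 past 4-fold by the size rule, and its interval overlaps with that of no other long contig. The next in order was contig 589590, of 4464 bases, with 1237 and 136 reads. Its levels were 8.96 FPKM (8.47 to 9.47) and 1.63 FPKM (1.37 to 1.93), which is 5.50-fold lower (4.60 to 6.61). With the pseudocount its log2 ratio was -1.92, just short of 4-fold. Contig 589656, of 5145 bases and the fourth by log2 ratio, had 445 and 52 reads, or 2.80 and 0.541 FPKM. Its plain ratio was 5.17-fold lower (3.87 to 7.03), and the pseudocount reduced this to a log2 ratio of -1.30.

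Other contigs past 2-fold downward had smaller fold differences. Contig 589544, of 4182 bases, had 7.17 and 1.93 FPKM, 3.71-fold lower (3.12 to 4.44). Contig 589566, of 4294 bases, had 3.74 and 1.02 FPKM, 3.66-fold lower (2.90 to 4.69). These intervals overlap. Contig 589738, of 6867 bases, had 4.15 and 1.29 FPKM, 3.21-fold lower (2.71 to 3.81). Contig 589510, of 4010 bases, had 4.94 and 1.64 FPKM, 3.01-fold lower (2.47 to 3.68). Among the more abundant ones, contig 589572, of 4356 bases, had 12.7 and 5.02 FPKM, 2.53-fold lower (2.27 to 2.83). Contig 589610, of 4645 bases, had 12.7 and 5.18 FPKM, 2.44-fold lower (2.20 to 2.71). The latter contigs were alike in level in both libraries, and their intervals overlap. Without the pseudocount, 21 of the 136 had an FPKM ratio at least 2-fold lower and 2 at least 2-fold higher. Over all 59206 contigs with at least 1 FPKM these numbers were 14802 and 12940. The counting interval lay wholly past 2-fold for 14 lower and 2 higher long contigs, against 5248 and 4991 of all 59206. By this last measure the share of lower ones was not smaller in the long contigs than over all contigs.

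**Figure D2:**
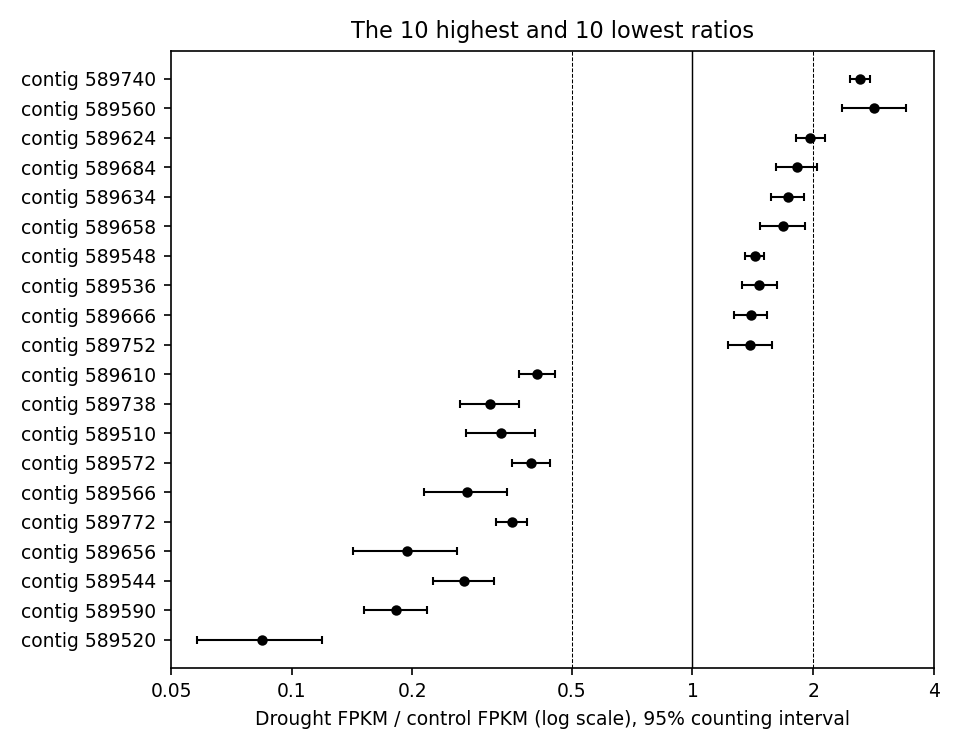
Drought FPKM divided by control FPKM, on a log scale, for the 10 highest and 10 lowest long contigs by log2 ratio, in the order of that ratio. Points are the plain FPKM ratios and bars the 95% exact binomial counting intervals; the lines mark a ratio of 1 and 2-fold in each direction. Contig 589520 stands apart at the low end, 11.8-fold lower, and only 2 of the 10 highest have intervals wholly past 2-fold.

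Among the 5 longest contigs, differences went in both directions. The longest, contig 589776 of 14949 bases, collected 2491 reads in the control and 1860 in drought, for levels of 5.39 and 6.66 FPKM, 1.24-fold higher in drought (1.16 to 1.31). Contig 589774, of 11701 bases, had 3643 and 1855 reads, or 10.1 and 8.48 FPKM, 1.19-fold lower (1.12 to 1.26). It held the most control reads of all 136. The third, contig 589772 of 11425 bases, was nearly the same length but differed much more between the libraries. It had 2888 and 618 reads, or 8.17 and 2.89 FPKM, 2.82-fold lower (2.59 to 3.09), and was the fifth lowest of the 136 by log2 ratio. Contig 589770, of 10547 bases, had 5.69 and 3.90 FPKM, 1.46-fold lower (1.34 to 1.59). Contig 589768, of 9861 bases, had 6.76 and 8.10 FPKM, 1.20-fold higher (1.12 to 1.28). The intervals of all 5 exclude a ratio of 1.

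The contigs with the highest FPKM went in both directions. They include contig 589740, described above, which was second in drought. Contig 589618, of 4673 bases, was the highest in the control, with 23.8 FPKM (23.1 to 24.7) there against 16.6 FPKM (15.7 to 17.4) in drought, 1.44-fold lower (1.35 to 1.53). Contig 589548, of 4196 bases, was the highest in drought, with 29.4 FPKM (28.2 to 30.6) there against 20.6 FPKM (19.8 to 21.4) in the control, 1.43-fold higher (1.35 to 1.51). The differences of these 2 contigs were of similar size and opposite direction. Contig 589584, of 4438 bases, went from 21.7 to 13.5 FPKM, 1.61-fold lower (1.50 to 1.73). Contig 589580, of 4422 bases, had 19.0 and 15.5 FPKM, 1.23-fold lower (1.15 to 1.31). Contig 589540, of 4146 bases and the third in drought, had 14.6 and 18.0 FPKM, 1.23-fold higher (1.15 to 1.32). Of the 10 highest in each library, 7 were shared, and of the 10 lowest 6.

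Some abundant long contigs could not be told apart between the libraries within counting error. Contig 589682, of 5527 bases and the fifth highest in both libraries, had 16.5 and 15.7 FPKM, a 1.05-fold lower value with a ratio interval of 0.891 to 1.01. Contig 589518, of 4054 bases, had 11.7 and 11.5 FPKM, with a ratio of 0.985 (0.904 to 1.07). Contig 589506, of 4008 bases, had 10.3 and 10.5 FPKM, with a ratio of 1.02 (0.934 to 1.12). Contig 589642, of 5003 bases, had 11.2 and 10.7 FPKM, with a ratio of 0.959 (0.887 to 1.04). The last 3 were named for being nearest to no change among long contigs whose mean was 10 FPKM or more, and an interval that includes 1 does not show equal levels.

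At the length limit, contigs with nearly equal and with different levels stood side by side. The 3 shortest of the 136 were contigs 589506, 589508 and 589510, of 4008, 4009 and 4010 bases. Contig 589506 had nearly equal FPKM in both libraries, as given above. Contig 589508 had 12.2 and 5.35 FPKM, 2.29-fold lower (2.05 to 2.56), and contig 589510 was 3.01-fold lower. The 3 longest below the limit were contigs 589504, 589500 and 589502, of 3993, 3979 and 3979 bases. Contig 589504 had 15.2 and 10.3 FPKM, contig 589500 had 11.0 and 6.04 FPKM, and contig 589502 had 3.77 and 3.68 FPKM.

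Contig numbers followed length. Ordered by number, the 97409 contigs with a length never became shorter from one to the next. The 136 long contigs thus carry the highest numbers, from 589506 to 589776, all even and each 2 above the one before. In the tables as a whole 65.2% of the numbers were even, and the longest contig with an odd number had 538 bases. A number therefore gives a contig's place by length. Lengths ran from 4008 to 14949 bases, with a median of 4989.5, and the 136 contigs had 134 distinct lengths. One shared length, 4092 bases, belonged to contigs 589530 and 589532, with 5.85 and 13.6 FPKM in the control and 4.37 and 9.24 in drought. The other, 5928 bases, belonged to contigs 589700 and 589702. They had 7.58 and 7.64 FPKM in the control but 6.01 and 8.97 FPKM in drought. Of the 9180 possible pairs of long contigs, 0 had FPKM values within 1% of each other in both libraries. Counting error is wider than this: the control interval of contig 589700 ran from 7.19 to 7.99 FPKM. The 0 therefore cannot show whether any of the contigs are copies of one another.

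Length within the set did not order the ratios. The median log2 ratio was -0.43 in the 68 contigs of 4000 to under 5000 bases, -0.22 in the 33 up to under 6000, -0.23 in the 24 up to under 8000, and -0.36 in the 11 longest, from 8000 bases on. The shortest of these bands, with 68 of the 136 contigs, held 9 of the 12 at least 2-fold lower, or 13.2% of the band. In the next bands the shares were 3.03%, 4.17% and 9.09%. Without the pseudocount, 11, 3, 4 and 3 contigs were at least 2-fold lower, from the shortest band to the longest. Summed reads were 1.31-fold lower in drought in the shortest band (1.29 to 1.32) and 1.14-fold in the next (1.12 to 1.16). They were 1.06-fold lower in the third (1.04 to 1.08) and 1.27-fold in the longest (1.24 to 1.30). Across the 136 contigs, which share both libraries and their totals, the Spearman correlation of length and log2 ratio was 0.12. That of length and mean FPKM was -0.18. Between the libraries, the log2(FPKM + 1) values of the 136 had a Pearson correlation of 0.813 and a Spearman correlation of 0.806.

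**Figure D3:**
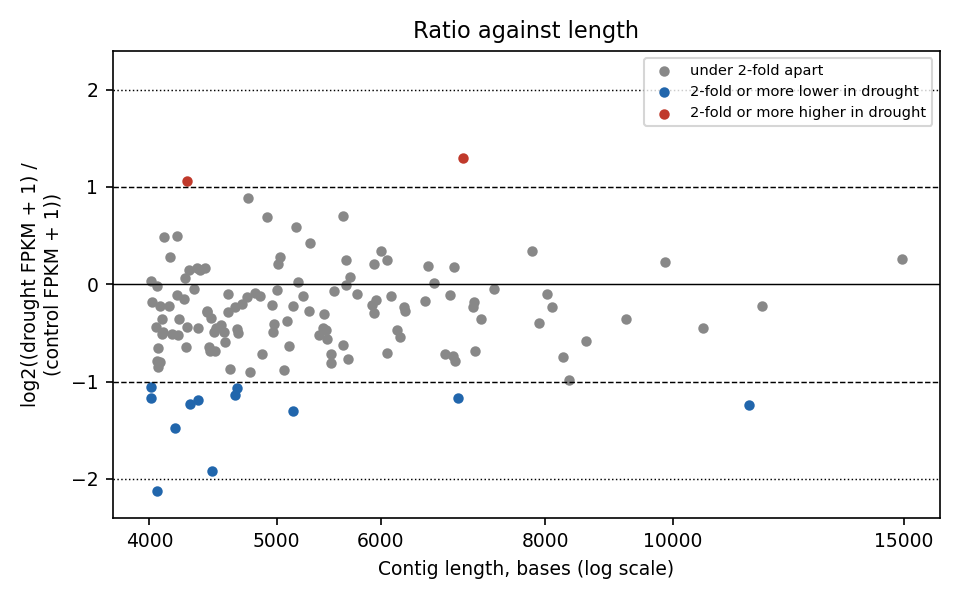
log2 ratio of drought over control, with a pseudocount of 1 FPKM, against contig length in bases on a log scale, 1 point per contig. Solid, dashed and dotted lines mark no difference, 2-fold and 4-fold. Most points lie below 0, and 9 of the 12 contigs past 2-fold downward are under 5000 bases long, as are 68 of all 136.

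Within the set, the contigs of lowest level had the lowest median ratio, but the medians did not rise steadily with level. The 52 long contigs with a mean of 1 to 5 FPKM had a median log2 ratio of -0.45, the 65 of 5 to 10 FPKM had -0.23, and the 17 of 10 to 20 FPKM had -0.28. Only 2 contigs lay above 20 FPKM, 589618 and 589548, one lower and one higher in drought. Summed reads of the lowest class were 1.43-fold lower in drought (1.40 to 1.46), against 1.22-fold (1.21 to 1.23) and 1.09-fold (1.07 to 1.11) in the next classes. The lowest class holds all 7 contigs that were under 1 FPKM in drought and passed the minimum through the control alone. The classes rest on the mean of the same values that make the ratio. Across the 136, the Spearman correlation of mean FPKM and log2 ratio was 0.18.

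Set beside shorter contigs, the long ones had a lower median and a narrower spread. The median log2 ratio was -0.20 in the 1186 contigs of 2000 to under 3000 bases and -0.17 in the 318 of 3000 to under 4000, against -0.30 in the 136. The interquartile range was 0.79 and 0.73 in those classes and 0.58 in the long contigs. Ratios below 0 made up 65.0%, 65.1% and 77.9%. Upward differences of 2-fold or more were found in 3.88%, 3.46% and 1.47%, and downward ones in 12.3%, 12.6% and 8.82%. Contigs are not replicates of a condition, so these differences between length classes carry no test.

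**Figure D4:**
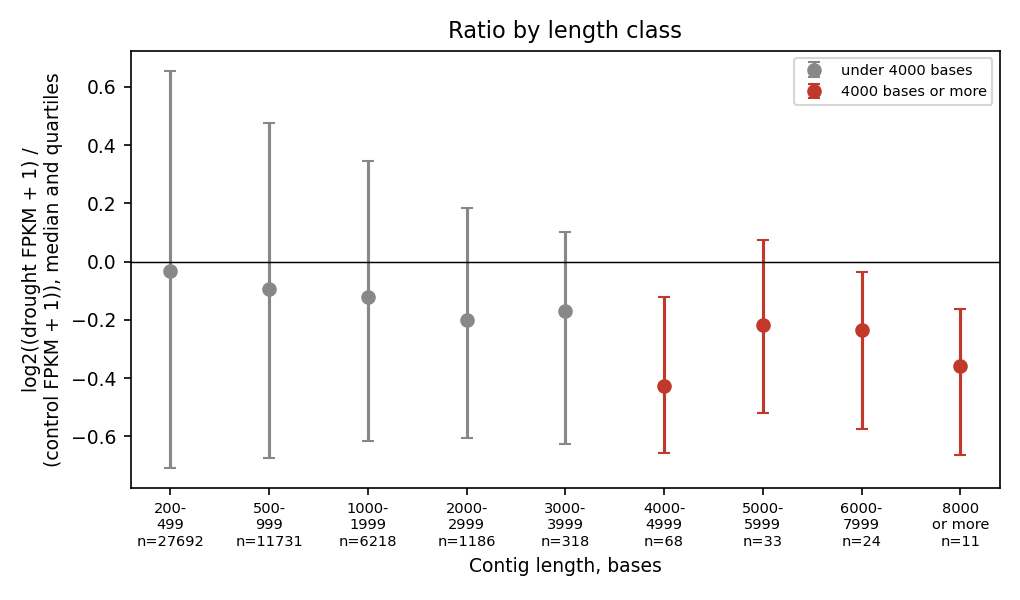
Median of the log2 ratio, drought over control (points), with the lower and upper quartile (bars) by contig length, for contigs that passed the minimum of 1 FPKM; contigs under 200 bases are not drawn. The 4 classes from 4000 bases on are in red, with medians from -0.43 to -0.22, below the -0.03 to -0.20 of the shorter classes.

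Comparison at equal level gave the same direction. In contigs of 1 to 5 FPKM the median log2 ratio was -0.45 for the long ones and -0.11 for those under 4000 bases. At 5 to 10 FPKM the medians were -0.23 and -0.08, and at 10 to 20 FPKM -0.28 and -0.02. At least 2-fold differences in either direction were found in 15.4% of the long and 28.5% of the shorter contigs of the lowest class, in 7.69% and 28.5% of the middle one, and in 5.88% and 27.2% of the highest of these. The shorter contigs had a median length of 332 bases over all levels. Those of 2000 to under 3000 bases had medians of -0.30, -0.16 and -0.10 in the same classes. Those of 3000 to under 4000 bases had -0.26, -0.18 and -0.009. Shares past 2-fold were 18.6%, 14.3% and 12.3% in the former, and 20.7%, 12.1% and 16.3% in the latter. At 5 to 10 FPKM the median of the long ones was -0.39 below 5000 bases, and -0.13, -0.19 and -0.16 in the longer bands. The values of the longer bands were thus near the -0.16 and -0.18 of the contigs of 2000 to under 4000 bases. At the same FPKM a shorter contig has fewer reads and more counting error. Among 10007 shorter contigs within the ranges of both mean FPKM and pooled reads of the long ones, a comparison added after the values were seen, the median log2 ratio was -0.12 and the interquartile range 0.97. Of these, 7.62% were higher by 2-fold or more and 15.0% were lower. Their counting interval lay below 1 for 43.3% and above 1 for 30.1%, against 67.6% and 15.4% of the long contigs. Their median length was 975 bases and their median mean level 11.5 FPKM, above the 6.18 FPKM of the long contigs, so the match is one of ranges only.

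**Figure D5:**
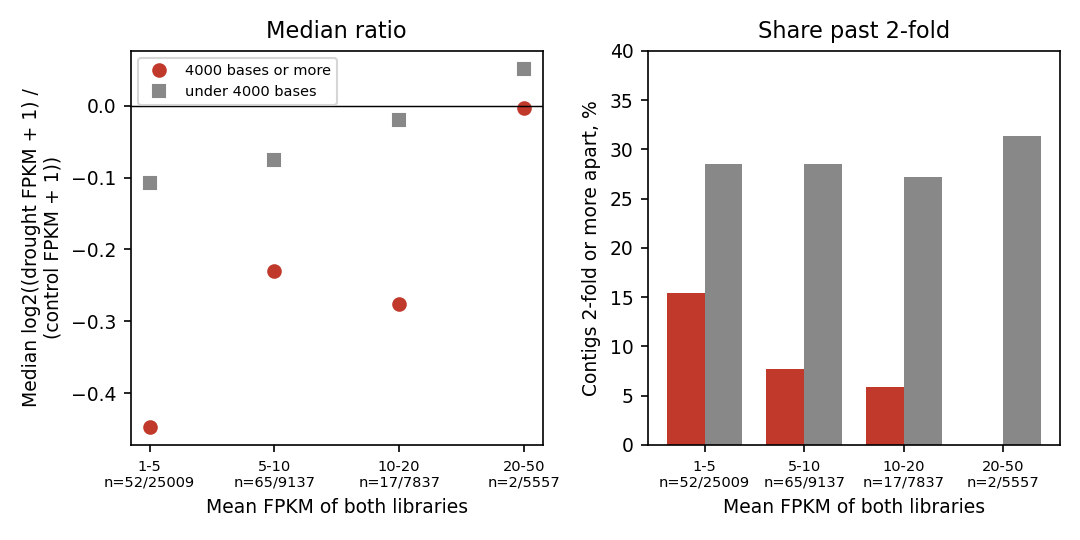
Contigs of 4000 bases or more (red) and shorter contigs (grey) in classes of mean FPKM, with the number of long and shorter contigs under each class. Left, the median log2 ratio (drought over control); right, the percent of contigs at least 2-fold apart in either direction, which was 0 of 2 long contigs in the highest class.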

How the data were processed

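Each table holds, per the file headers, a read count and an FPKM value for every contig. The counts are raw whole numbers as the authors deposited them, and the FPKM values were computed by the authors. Bowtie2 appears in the submitters' processing notes, with neither version nor role stated. The programs for assembly and counting, and any strand setting, were not given in the sources used here. Length came from the count divided by FPKM, which in both libraries stepped by a fixed amount per base (to within 0.001 of a base). The library totals behind the FPKM values came out at 30922631 (control) and 18689979 (drought), and reads on contigs made up 40.5% and 39.6% of them.

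Ratios were log2((drought FPKM + 1)/(control FPKM + 1)), and a contig was counted past 2-fold or 4-fold on this scale. A count model was not fitted, since each condition has 1 library. Intervals are 95%: exact Poisson for an FPKM value, exact binomial (Clopper-Pearson) for the ratio of 2 counts or a share of reads. Python 3.11.15, pandas 2.3.3 and scipy 1.17.1 were used, and the calculations were tested on simulated data. Named contigs are the 10 highest and 10 lowest by log2 ratio, the 5 highest in each library, the 5 longest, the 3 nearest to no change with a mean of at least 10 FPKM, and 3 on each side of the length limit; contigs 589530, 589532, 589700 and 589702 were named after their values were seen, for their shared lengths. No long contig lacked reads in a library. The set of contigs and the rules were chosen with earlier results of these data known.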

Additional observations from a re-analysis of the deposited data

How the results depend on the processing

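With no replicates, no library could be left out. The fewest reads of a long contig were 34, for contig 589520 in drought, whose fold interval ran from 8.39 to 17.2. No paired analysis was possible because there is only 1 control and 1 drought library. The comparison within ranges of level and reads was chosen after seeing the data, unlike the other alternative settings given here. The number of long contigs at least 2-fold lower, 12 as reported, was 20 with a pseudocount of 0.1 FPKM, 1 with 5 FPKM, 21 with 0.5 read added instead, 7 of 94 contigs at a minimum of 5 FPKM, 52 of 454 from 3000 bases, and 3 of 68 from 5000 bases. The number at least 2-fold higher, 2 as reported, was 1 with 5 FPKM as pseudocount, 1 at the 5 FPKM minimum, 13 from 3000 bases and 1 from 5000 bases. At 4-fold, the 1 lower contig became 3 with 0.1 FPKM, 0 with 5 FPKM, 3 with 0.5 read, 2 on the TPM scale, 7 from 3000 bases and 0 from 5000 bases, and the 0 higher became 1 from 3000 bases. Larger pseudocounts shrink ratios and other length limits change the number of contigs by construction. Scaling by the median ratio or the upper quartile left these counts within 1.5 times. Shares over all 59206 contigs also rose with 0.1 FPKM and with 0.5 read. At least 2-fold lower were 23.9% and 23.8%, against 16.2% as reported. The long contigs went from 8.82% to 14.7% and 15.4%. At 4-fold lower the shares over all contigs were 10.3% and 10.2%, against 3.04%. At least 2-fold higher were 21.1% and 21.8% of all contigs, against 14.0%, while the long contigs stayed at 1.47%.

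The median log2 ratio stayed below 0 under each setting: -0.35 with 0.1 FPKM, -0.19 with 5 FPKM, -0.36 with 0.5 read, -0.29 on the TPM scale, -0.28 by the median ratio, -0.23 by the upper quartile, -0.28 at the 5 FPKM minimum, and -0.23 from 3000 and from 5000 bases. These scalings shifted the drought values by 0.03, 0.02 and 0.08 on the log2 scale. The share of reads was 1.13% and 0.973% (control and drought) at the 5 FPKM minimum, 3.62% and 3.36% from 3000 bases, 0.687% and 0.614% from 5000 bases, 0.530% and 0.436% of the library totals, and 0.130% and 0.108% as a share of summed FPKM. The difference in median between long and shorter contigs, -0.24 over all, was -0.34, -0.155, -0.26 and -0.0551 from the lowest to the highest class of mean FPKM, the last with 2 long contigs, and -0.18 within the ranges of level and reads. The 33 named long contigs kept the direction of their ratio in 194 of 198 values, and the exceptions had counting intervals that include a ratio of 1.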
